A study of Mus musculus with 6 samples.

Results

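The genes described here are the microphthalmia (MiT/TFE) family of transcription factors, Mitf, Tfeb, Tfe3 and Tfec, and 4 factors that specify and maintain the retinal pigment epithelium (RPE), Otx2, Sox9, Pax6 and Lhx2. They were taken by gene symbol from a table of 12556 genes. Of the 8 genes named, 7 were in the table, and Tfec was not analysed here. RNA was sequenced from primary RPE cultures of C57BL/6J mice aged 10 to 12 days, with no transgene or deletion in the labels, plated on porous membranes (0.4 µm) at about 1 eye per well and kept for 5 to 6 days. Of the 6 libraries, 3 came from cultures given photoreceptor outer segments (POS) at about 10 per RPE cell for 1.5 h, and 3 from unchallenged cultures, whose titles call them Veh. The labels describe biological replicates without saying whether litters or days differed, so p-values measure the spread between these cultures.

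MITF, TFEB, TFE3 and TFEC are basic helix-loop-helix leucine zipper proteins that bind DNA as dimers, also with one another, at short words built around an E-box. MITF drives melanin synthesis genes in pigment cells and is required for the RPE to form. TFEB and TFE3 drive genes of lysosomes and autophagy, and their activity is set largely by whether mTORC1 phosphorylation holds them in the cytoplasm, which RNA levels do not measure. OTX2, PAX6 and LHX2 are homeodomain proteins of early eye development, and SOX9 is an HMG-box protein that acts with OTX2 and LHX2 on visual cycle genes in the RPE.

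The words these factors are known to bind can be seen in promoters of genes measured here, in windows running from 250 bases before to 50 bases after a RefSeq gene start (assembly GRCm38.p6). The M-box TCATGTG, a MITF word, was searched on both strands. It lay in 5 of 15 promoters of the pigment genes listed (33.3%) and in 3.77% of all 32851 promoters. The 15 promoters belong to 13 of the 18 pigment genes measured. These genes were listed as known MITF and OTX2 targets, so a high share can follow from that choice and is not a result of these data. Among other lists described below, the M-box lay in 19.0% of MiT/TFE regulator, 15.4% of lysosome and autophagy and 6.25% of visual cycle promoters. It lay in 0% for other eye factors and for epithelial-mesenchymal genes. The 5 pigment genes with the word make or sort melanin or carry ions in pigment cells. Each of their M-boxes is given here with 10 bases on either side, the word in capitals, read along the gene's strand.
Tyr, chr7:87493518-87493544, minus strand: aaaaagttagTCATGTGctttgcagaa
Tyrp1, chr4:80834156-80834182, plus strand: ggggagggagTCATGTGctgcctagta
Dct, chr14:118052462-118052488, minus strand: ttggctgggaCACATGAgcccaataaa
Dct, chr14:118052381-118052407, minus strand: gcacttagggTCATGTGctaacaaaga
Trpm1, chr7:64153683-64153709, plus strand: caaatcctcaTCATGTGcccaccccaa
Slc24a5, chr2:125068104-125068130, plus strand: ggagactgctCACATGAttcagcataa
The Tyr word starts 22 bases and the Tyrp1 word 47 bases upstream of the gene start.

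The E-box CACGTG is the core of the lysosomal word bound by TFEB and TFE3. It lay in 12 of 26 promoters of the lysosome and autophagy genes (46.2%) and in 7.15% of all promoters. The 26 promoters belong to 24 of the 31 genes measured. They were listed as known TFEB and TFE3 targets, so here too a high share can follow from the choice of genes. Among the other lists the E-box lay in 28.6% of MiT/TFE regulator, 26.7% of pigment and 14.3% of other eye factor promoters. The regulator list shares genes with the lysosome list, and Fnip1, Mcoln1 and Rragc, which hold the E-box, count in both. It lay in 6.25% of visual cycle and 0% of epithelial-mesenchymal promoters. The longer CLEAR palindrome, an E-box with GT before it and AC after it, lay in 0 of the 26 and in 0.326% of all promoters. Shown are the E-boxes of genes for a lysosomal protease (Ctsd), a heparan sulfate hydrolase (Naglu), a lysosomal membrane protein (Lamp1) and a lysosomal calcium channel (Mcoln1), in capitals.
Ctsd, chr7:142387910-142387935, minus strand: gcccgcgtctCACGTGacccgttgag
Naglu, chr11:101070011-101070036, plus strand: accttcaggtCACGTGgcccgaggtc
Lamp1, chr8:13159123-13159148, plus strand: tgccgactggCACGTGaccacatcac
Mcoln1, chr8:3500464-3500489, plus strand: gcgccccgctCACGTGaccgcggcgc
Ctsd, Lamp1 and Mcoln1 held further E-boxes in the same windows.

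The homeodomain word TAATCC, which OTX proteins bind, lay in 7.06% of all promoters, in 4 of the 15 pigment promoters (26.7%), in 2 of 16 visual cycle promoters (12.5%) and in 2 of the 17 promoters listed for Mitf, Tfeb, Tfe3, Tfec, Otx2, Pax6 and Lhx2 (11.8%). Shown are the copies at Otx2 itself, at the retinoid isomerase gene Rpe65 and at the retinal opsin gene Rgr, in capitals.
Otx2, chr14:48665305-48665330, minus strand: tgtgcccctcGGATTAtctcgttagt
Rpe65, chr3:159599129-159599154, plus strand: cctccaataaGGATTAgattgcatac
Rgr, chr14:37049166-37049191, minus strand: tccaagacctTAATCCtgcctagtgg
The other member with the word was Mitf, at one of its 3 listed starts, which is shown whole because Mitf stood higher in every challenged library.
Mitf, chr6:97929567-97929866, plus strand: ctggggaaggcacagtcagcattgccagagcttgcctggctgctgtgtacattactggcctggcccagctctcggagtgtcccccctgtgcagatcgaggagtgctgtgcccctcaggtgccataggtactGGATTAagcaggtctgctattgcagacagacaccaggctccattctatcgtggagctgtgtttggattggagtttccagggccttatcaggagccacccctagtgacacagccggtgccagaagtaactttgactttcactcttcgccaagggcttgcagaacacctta
A match describes letters only, and the pigment and visual cycle lists were chosen as genes linked to these factors. Neither the E-box nor the M-box lay in the 17 windows of these factors.

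Each library held between 24869273 and 30420028 reads in these genes, and levels are given as the authors' normalized read counts. The cultures held RPE transcripts: 16 of 17 RPE markers listed were in the table, and the defining gene Rpe65 was low, at 102.6, 167.2 and 138.7 in unchallenged and 206.8, 142.5 and 120.9 in challenged replicates 1, 2 and 3. The rod arrestin gene Sag, the sole photoreceptor marker of 16 in the table, marked the challenge, at 17.9 to 26.6 unchallenged and 578 to 987 challenged. Some libraries stood apart. The interferon gene Ifit3 stood at 5553 in unchallenged replicate 1 and at 11726 in unchallenged replicate 3, against 139 to 958 in the other 4 libraries, and the sterol gene Hmgcs1 had 6508 in POS-challenged replicate 3 and 15259 to 19241 elsewhere. In bulk RNA, fewer cells of a type and less RNA per cell cannot be told apart.

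None of the 7 transcription factor genes changed past the threshold with the POS challenge. Mitf and Lhx2 stood higher and Tfe3 lower in all 3 challenged libraries than in any unchallenged one. The group means differed by 38.7% for Mitf, 32.0% for Lhx2, -12.1% for Tfe3, 5.83% for Otx2 and 5.76% for Sox9. Of the 7, 6 had a positive log2 fold change, beside 51.7% of all genes, and the median was 0.15, beside 0.007. By limma on log2(value + 1), 0 of 7 passed an adjusted p of 0.05, beside 0.0956% of all 12556 genes, and 2 of 7 had an unadjusted p under 0.05, beside 11.5%. In the authors' deposited table, made with DESeq2, 0 of 7 passed, beside 2.45% of all genes, and the same 2 genes had an unadjusted p under 0.05, beside 11.7%. Groups did not overlap for 3 of 7 genes, beside 20.0% of all genes.

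**Figure D1:**
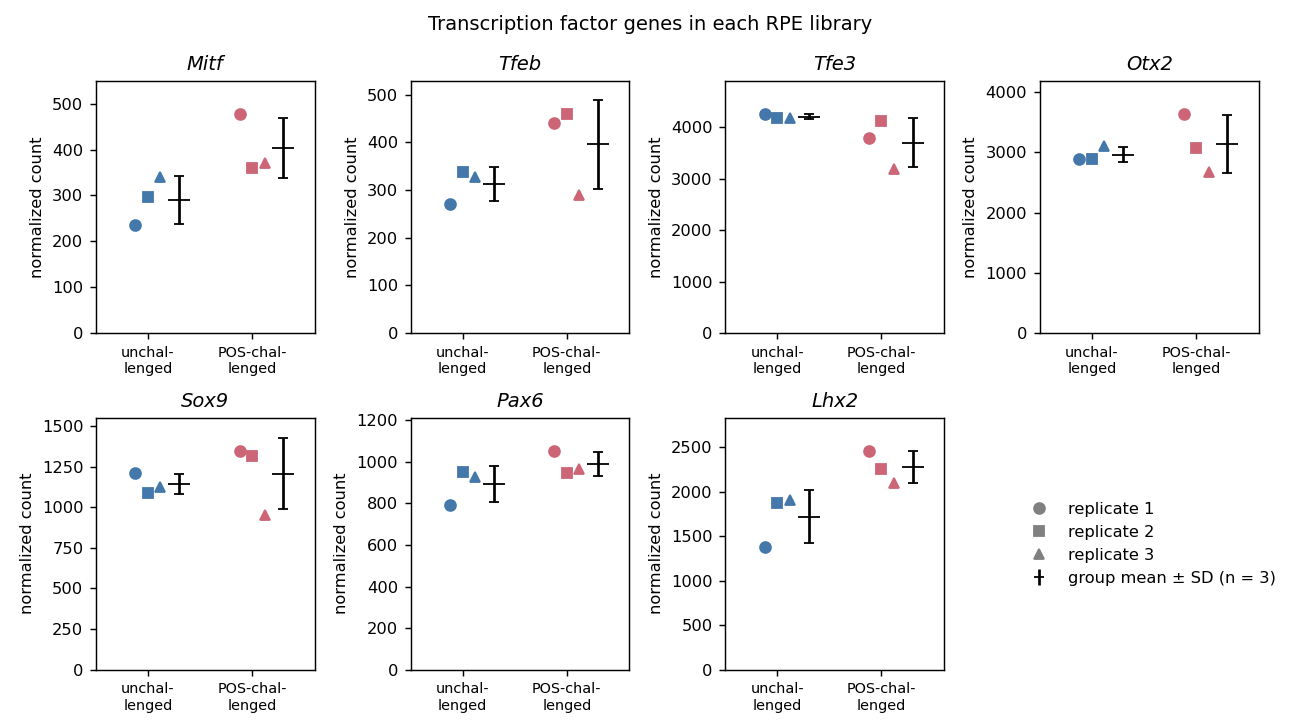
Normalized counts (y axis, from 0) of each of the 7 factor genes in the 3 unchallenged and 3 POS-challenged libraries (symbols, by replicate), with the group mean ± SD at the right. Mitf and Lhx2 points are all higher and Tfe3 points all lower in the challenged group, and the other 4 genes overlap.

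Mitf (Entrez Gene 17342, chr6:97807002-98021360, plus strand) had normalized counts, in the order of replicates 1, 2 and 3, of 235.0, 296.0 and 340.6 without POS and of 478.0, 359.0 and 371.9 with POS. The highest unchallenged value lay close below the lowest challenged one, and POS-challenged replicate 1 stood above the rest. The means were 290.5 ± 53.0 and 403.0 ± 65.3 (SD, n = 3 for every mean ± SD). The fitted log2 fold change was 0.48 ± 0.17 (SE here and for every fold change, 95% interval 0.07 to 0.88; limma adjusted p = 0.385, unadjusted 0.027). Between 236 and 527 reads lay behind each value, and the coefficient of variation within the unchallenged group was 18.2%, beside 6.04% from counting alone. Scaling the libraries to the RPE markers, described below, brought the log2 fold change to 0.29, beside -0.18 for the median of all genes. That shift was the same for every gene.

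Tfeb (21425, chr17:47737037-47792416, plus strand) had 270.8, 337.5 and 328.4 unchallenged and 439.9, 459.9 and 289.2 challenged. POS-challenged replicates 1 and 2 stood above all unchallenged libraries, and replicate 3 stood among them. The means were 312.3 ± 36.2 and 396.3 ± 93.3, a log2 fold change of 0.32 ± 0.19 (95% interval -0.13 to 0.77; limma adjusted p = 0.547). Without POS-challenged replicate 3 the log2 fold change was 0.53, and without POS-challenged replicate 2 it was 0.20. With all 6 libraries scaled to the RPE markers it was 0.14, beside -0.18 for the median of all genes.

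Tfe3 (209446, chrX:7762530-7775202, plus strand), a broadly expressed member of the family, had 4256.9, 4180.4 and 4174.5 unchallenged and 3797.6, 4112.0 and 3180.7 challenged. The unchallenged libraries lay within a coefficient of variation of 1.09%, no wider than the 1.58% expected from counting, and the lowest challenged value was in replicate 3. The highest challenged value, 4112.0 in replicate 2, lay close below the lowest unchallenged one, 4174.5 in replicate 3. The means were 4203.9 ± 45.9 and 3696.8 ± 473.8, a log2 fold change of -0.19 ± 0.10 (95% interval -0.42 to 0.04; limma adjusted p = 0.496). Without POS-challenged replicate 3, where Hmgcs1 was also low, the log2 fold change was -0.09. With all 6 libraries scaled to the RPE markers it was -0.38, beside -0.18 for the median of all genes.

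The make-up of the 3 measured family genes was described as each gene's share of their sum, per kilobase of annotated exon (GENCODE M21). Tfe3 made up 84.3%, 80.8% and 80.0% in the unchallenged libraries and 72.6%, 76.2% and 75.6% in the challenged ones. Mitf made up 6.95%, 8.55% and 9.75% and then 13.7%, 9.94% and 13.2%, and Tfeb 8.76%, 10.7% and 10.3% and then 13.7%, 13.9% and 11.2%. The groups did not overlap for any of the 3 shares, which are bound to each other since they sum to the whole. For Mitf the gap was narrow, 9.75% in unchallenged replicate 3 against 9.94% in POS-challenged replicate 2. The shares come from the same values as above, so they are not separate support, and no such count over all genes was made. Tfe3's mean share was 81.7% ± 2.29 unchallenged and 74.8% ± 1.90 challenged. The two-sided exact permutation p was 0.1 for each gene, the smallest that 3 against 3 libraries allow. Without division by length the groups differed in the same directions.

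**Figure D2:**
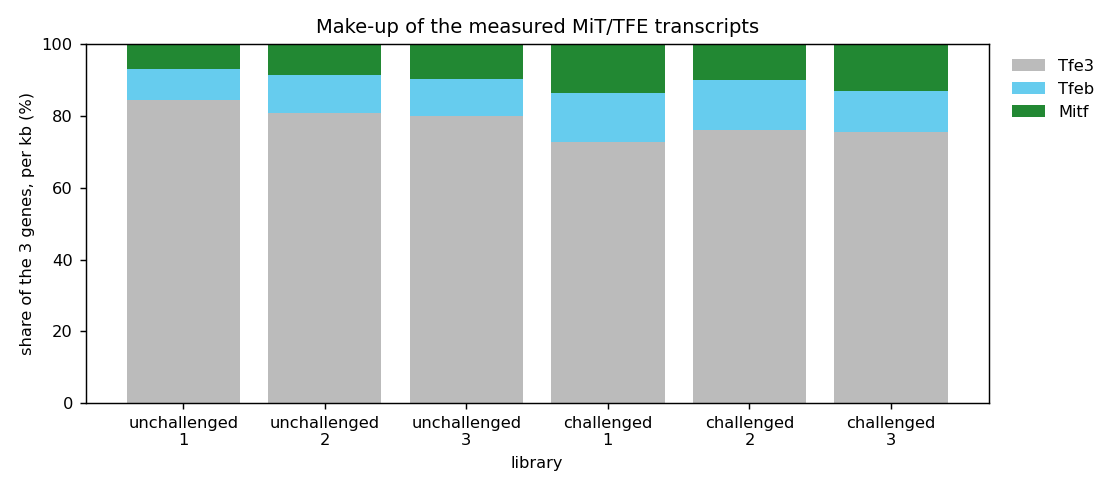
Share of Mitf, Tfeb and Tfe3 in their sum per kilobase (y axis, %) in each library (bars). Tfe3 takes 80.0% to 84.3% in unchallenged and 72.6% to 76.2% in challenged libraries.

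Of the RPE identity factors, Lhx2 (16870, chr2:38339271-38369737, plus strand), a LIM-homeodomain gene required for the eye to form, differed most. It had 1383.1, 1877.3 and 1907.0 unchallenged and 2463.4, 2254.0 and 2104.4 challenged. Unchallenged replicate 1 stood far below the other libraries. The means were 1722 ± 294 and 2274 ± 180, a log2 fold change of 0.41 ± 0.13 (95% interval 0.10 to 0.73; limma adjusted p = 0.356, unadjusted 0.0174). In the authors' deposited table Lhx2 ranked 580 by p (adjusted p = 0.152 there). Without unchallenged replicate 1 the log2 fold change was 0.26, and without unchallenged replicates 1 and 3 it was 0.27. With all 6 libraries scaled to the RPE markers it was 0.23, beside -0.18 for the median of all genes.

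Pax6 (18508, chr2:105668896-105698410, plus strand), the paired-box gene of eye development that favours pigment cell genes together with MITF in the RPE, had 792.6, 953.0 and 928.5 unchallenged and 1053.9, 945.7 and 964.5 challenged. The groups overlapped, and unchallenged replicate 1 was the lowest library. The log2 fold change was 0.15 ± 0.09 (95% interval -0.07 to 0.37; limma adjusted p = 0.559). Without unchallenged replicate 1 it was 0.07, and scaling to the RPE markers brought it to -0.03, beside -0.18 for the median of all genes.

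Otx2 (18424, chr14:48656781-48667644, minus strand), a homeobox gene of RPE and photoreceptor fate, had 2884.7, 2883.5 and 3104.0 unchallenged and 3636.1, 3076.6 and 2676.8 challenged. The challenged libraries spread to both sides of the unchallenged ones. The log2 fold change was 0.07 ± 0.11 (95% interval -0.19 to 0.34; limma adjusted p = 0.828), and it turned to -0.04 without POS-challenged replicate 1 and was -0.11 with scaling to the RPE markers, beside -0.18 for the median of all genes. The noncoding gene Otx2os1 overlaps Otx2 on the opposite strand, and the labels do not say whether counting used strand.

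Sox9 (20682, chr11:112782210-112787757, plus strand) had 1207.9, 1087.2 and 1124.9 unchallenged and 1347.8, 1315.8 and 953.4 challenged. POS-challenged replicates 1 and 2 were the highest and replicate 3 the lowest of the 6. The log2 fold change was 0.06 ± 0.14 (95% interval -0.26 to 0.39; limma adjusted p = 0.881). It turned to -0.02 without POS-challenged replicate 1, to -0.007 without replicate 2, and was -0.12 with scaling to the RPE markers, beside -0.18 for the median of all genes.

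**Figure D3:**
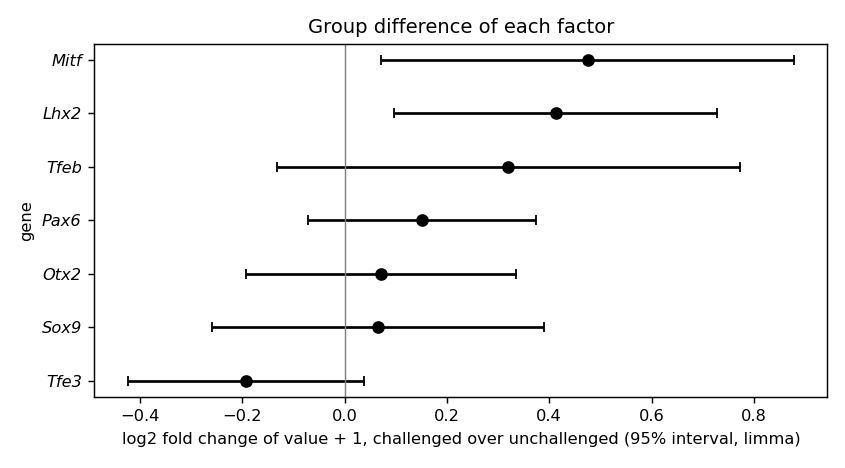
Log2 fold change of value + 1, challenged over unchallenged (x axis), of the 7 factor genes (rows), with 95% intervals from limma. The intervals of Mitf (0.07 to 0.88) and Lhx2 (0.10 to 0.73) lie above 0 before adjustment over all genes, and the other 5 cross 0.

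Levels were compared between genes per kilobase of annotated exon, over all isoforms of the annotation. The order of the means over 6 libraries was Otx2 at 721 normalized counts per kilobase, Lhx2 at 455, Tfe3 at 427, Sox9 at 284, Pax6 at 80.4, Tfeb at 62.5 and Mitf at 56.0. This order depends on the lengths used. Without division Tfe3 stood above Otx2, at means of 4204 and 2957 unchallenged and 3697 and 3130 challenged. Lhx2 and Tfe3 changed places between the groups, with means of 392 and 454 per kilobase unchallenged and 518 and 399 challenged. Otx2 libraries ran from 634 to 861, above the 315 to 561 of Lhx2. The ranges of Lhx2 and Tfe3 (343 to 460) overlapped, as did those of Pax6 (67.8 to 90.1), Tfeb (47.8 to 81.1) and Mitf (37.9 to 77.1). Sox9, at 231 to 326, lay below Tfe3 and overlapped Lhx2 at its upper end.

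RPE marker levels differed between libraries. The mean log2 level of the 16 RPE markers was 9.90, 10.39 and 10.49 in unchallenged replicates 1, 2 and 3 and 10.71, 10.46 and 10.16 in POS-challenged replicates 1, 2 and 3. The highest value was thus in POS-challenged replicate 1, where 5 of the 7 factors were also highest, and the lowest in unchallenged replicate 1, where Mitf, Tfeb, Pax6 and Lhx2 were lowest, while Tfe3 was highest there and Sox9 stood above its mean. POS-challenged replicate 3 was the lowest challenged library for 5 of the 7. Tyr, Tyrp1, Dct and Pmel, which MITF is known to drive, are among these markers, so the markers are not independent of the factors. Setting the marker mean equal in every library lowered the log2 fold change of every gene by the same amount, with the median going from 0.007 to -0.18. The place of a factor relative to that median could not change, so this scaling does not test it. Otx2, Sox9 and Pax6 changed sign through that shift alone. The part of differing RPE content in the factor values was not tested.

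**Figure D4:**
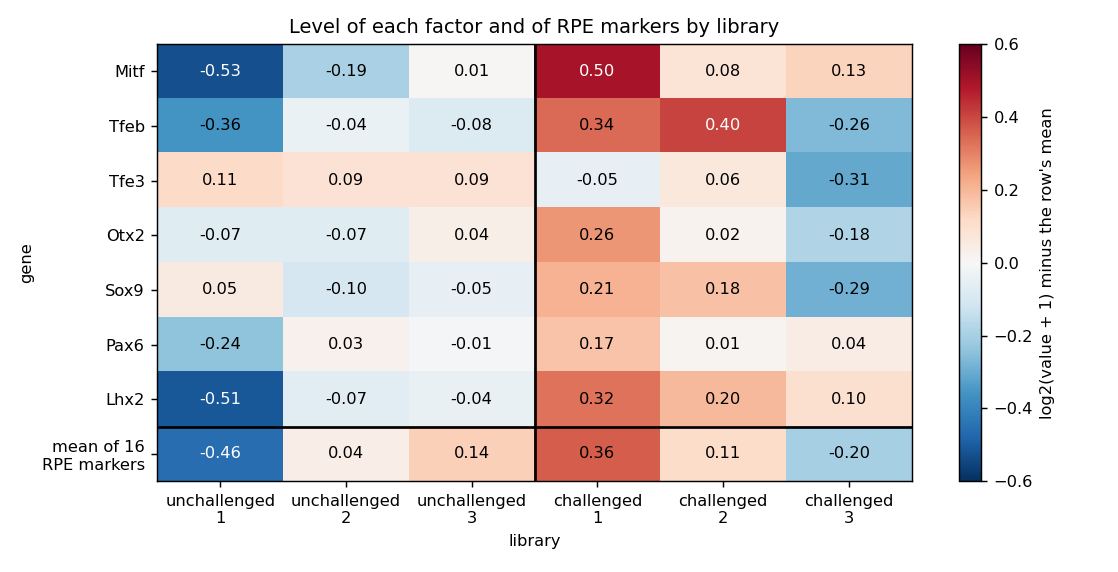
Log2(value + 1) of each factor gene in each library (columns) minus the gene's mean over the 6 libraries (color and printed value), with the mean of the 16 RPE markers in the bottom row. Unchallenged replicate 1 is low for Mitf (-0.53), Lhx2 (-0.51) and Tfeb (-0.36) and for the markers, and POS-challenged replicate 1 is high for Mitf (0.50).

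Markers of other cell types that express some of these factors were measured as well. Among melanocyte markers, where Mitf is also active, 5 of 7 were in the table, with summed normalized counts of 2163 to 3075 unchallenged and 2159 to 3653 challenged. Sox10, a defining neural crest gene of melanocytes, stood at 202.7 ± 34.1 and 273.2 ± 54.1. Of the Müller glia and retinal progenitor markers, 4 of 10 were in the table, with sums of 27054 to 33838 and 23093 to 34977, and the defining genes Rax and Sox2 were not analysed here. Inner retinal neuron markers (3 of 13) summed to 187 to 219 and 159 to 217. Endothelial markers (4 of 8) summed to 475 to 498 and 458 to 504 and macrophage markers (7 of 10) to 1176 to 1361 and 998 to 1371. Fibroblast markers (8 of 8), of which collagen genes were the most abundant, summed to 69543 to 93928 and 61165 to 79081. On the same measure the 16 RPE markers summed to less, 46158 to 63810 and 47083 to 72543. Sums over different genes do not give shares of cells. Of the fibroblast markers, the growth factor receptor gene Pdgfra stood at 861 ± 179 and 1689 ± 478 without overlap (adjusted p = 0.252 by limma, 0.00334 in the authors' deposited table). The proteoglycan gene Dcn stood at 1085 ± 717 and 471 ± 29.5. Their part in the factor values was not tested.

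Within the factors, profiles over the 6 libraries were compared by the mean absolute difference of log2 levels after each gene's mean was taken off. The most alike pair was Mitf and Lhx2, at 0.086, and the least alike was Mitf and Tfe3, at 0.334. Among 10249 genes with a mean of at least 100 normalized counts, the nearest to Lhx2 were Ank, a pyrophosphate transport gene, at 0.024, and Tbx2, a T-box gene of the dorsal eye, at 0.027, and 102 genes lay within 0.1. The nearest to Mitf were Fbn2, a fibrillin gene, at 0.059 and Zrsr1, a splicing factor gene, at 0.065, with 34 genes within 0.1. Tfeb lay nearest to Igfbp4, which codes for a binding protein of insulin-like growth factors, at 0.038 and to 4930523C07Rik at 0.043, with 43 genes within 0.1. Flatter genes had many neighbours: 1869 genes lay within 0.1 of Tfe3, with the integrin gene Itgb1 nearest at 0.013 and Sar1a, a GTPase gene of vesicle budding, at 0.015. For Pax6 there were 1983, with Smpd2 at 0.012 and Fryl at 0.019, for Otx2 1367, with Nagk and Lpar6 at 0.038 each, and for Sox9 415, with Mylk2 at 0.022 and Thbs2 at 0.034.

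Genes that the factors are known to act on, and genes that act on them, showed 0 calls in limma over all genes in any of 6 lists, which hold 118 measured genes, beside 0.0956% of all genes called. The authors' deposited table called 1 of the 118, Rab38, beside 2.45% of all genes.

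Pigment genes of the MITF and OTX2 programme had positive log2 fold changes in 12 of 18, with a median of 0.05, beside 0.007 over all genes tested. Leaving out replicate 1 of either group brought that median to -0.03, and leaving out POS-challenged replicate 2 brought it to -0.006. It was 0.14 without unchallenged replicate 3 and 0.21 without POS-challenged replicate 3. After quantile normalization it was 0.17, beside 0.03 for all genes. Rab38, a GTPase gene of melanosome transport, had 463, 576 and 536 normalized counts unchallenged and 966, 900 and 780 challenged, with no overlap. Its log2 fold change was 0.75 ± 0.12 (limma adjusted p = 0.125), while the authors' deposited table lists an adjusted p of 2.64e-05. Tyr, the gene of tyrosinase, whose promoter M-box is shown above, had 16469, 25494 and 23165 and then 26214, 23924 and 15831, with the 2 lowest values in unchallenged replicate 1 and POS-challenged replicate 3 (log2 fold change 0.01, limma adjusted p = 0.993). Gpnmb, a lysosomal and melanosomal glycoprotein gene, stood at 161820 ± 16337 and 156917 ± 28852, and Cdk2, the most negative of the list, at 823 ± 61.7 and 770 ± 62.5 (log2 fold changes -0.06 and -0.10).

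Lysosome and autophagy genes of the TFEB and TFE3 programme had a negative log2 fold change in 21 of 31, with a median of -0.05, beside 0.007 for all genes. After quantile normalization the list median was 0.04, beside 0.03 for all genes. Unadjusted p was under 0.05 for 3 of 31, all lower, beside 11.5% of all genes, and groups did not overlap for 8 lower and 1 higher, beside 10.4% and 9.56% of all genes. The list's mean log2 level was 12.62, 12.70 and 12.74 unchallenged and 12.69, 12.67 and 12.58 challenged, lowest in POS-challenged replicate 3. Ctsd had 413389, 442779 and 473153 and then 516803, 462999 and 324933, so that the challenged libraries lay on both sides (log2 fold change -0.05, limma adjusted p = 0.955). Ctsb, another cathepsin gene, stood at 109707 ± 1795 and 96558 ± 16606, Sqstm1, an autophagy receptor gene, at 77776 ± 3846 and 78988 ± 9835, and Naglu at 4443 ± 293 and 3718 ± 852. Ppargc1a, a coactivator gene of mitochondrial biogenesis, had the highest log2 fold change of the list, 0.42 ± 0.21 (863 ± 232 and 1133 ± 181, limma adjusted p = 0.49).

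Regulators of MiT/TFE location had a median of 0.01 over 26 genes, with 15 positive, and of -0.01 without unchallenged replicate 1. Rheb, the GTPase gene that activates mTORC1, had 3409, 3559 and 3619 unchallenged and 3080, 3135 and 2771 challenged, without overlap (log2 fold change -0.24 ± 0.07, limma adjusted p = 0.326). Mtor, the kinase gene itself, had 2894, 3188 and 3096 and then 3449, 3447 and 3433, also without overlap (log2 fold change 0.17 ± 0.06, limma adjusted p = 0.388). Groups did not overlap for 2 higher and 1 lower of the 26, beside 9.56% and 10.4% of all genes. The kinase gene Akt1 stood at 7542 ± 100 and 7603 ± 457, and Ywhab, a 14-3-3 gene, at 10381 ± 110 and 9757 ± 742.

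Visual cycle and RPE genes downstream of SOX9, OTX2 and LHX2 had a median of 0.10 over 14 genes, with 10 positive, 0 with an unadjusted p under 0.05, beside 11.5% of all genes, and 0 without overlap, beside 20.0%. With 1 library left out the median ran from -0.04, without unchallenged replicate 1, to 0.26, without POS-challenged replicate 3, and it was -0.02 without POS-challenged replicate 1. Trpm3, a cation channel gene, stood at 5846 ± 1496 and 6152 ± 1560, the engulfment receptor gene Mertk at 3017 ± 524 and 3559 ± 907, and Ttr, the gene of the retinol carrier transthyretin, at 3568 ± 150 and 3309 ± 885. Lrat, which esterifies retinol, was low, with 20.9, 73.5 and 68.8 and then 108.8, 55.5 and 99.8 normalized counts (log2 fold change 0.82 ± 0.50, limma adjusted p = 0.552).

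Other transcription factors of eye and RPE development had a median of 0.11 over 21 genes, or 0.04 without unchallenged replicate 1, with 15 positive, and 3 higher and 1 lower had an unadjusted p under 0.05, beside 11.5% of all genes. Nr2f1, an orphan nuclear receptor gene of eye patterning, had 73.7, 110.7 and 95.4 unchallenged and 167.8, 147.1 and 125.0 challenged, without overlap (log2 fold change 0.66 ± 0.19, limma adjusted p = 0.325). Tbx2, the near neighbour of Lhx2, stood at 335 ± 54.9 and 446 ± 52.3 (log2 fold change 0.42 ± 0.15, limma adjusted p = 0.385). Sox11, a factor gene of the early eye, had 374, 327 and 312 and then 299, 251 and 274 (log2 fold change -0.30 ± 0.12, limma adjusted p = 0.411). The abundant genes Ctnnb1, Tead1 and Yap1, of the Wnt and Hippo pathways, had means of 37469 ± 603, 12236 ± 920 and 6847 ± 323 without and 33634 ± 2302, 12239 ± 285 and 6323 ± 681 with the challenge.

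Genes of epithelial-mesenchymal transition, which RPE cells can enter in culture, had a median of -0.16 over 12 genes, with 7 negative. After quantile normalization the median was 0.0009, beside 0.03 for all genes. In the main fit 1 gene, lower, had an unadjusted p under 0.05, beside 11.5% of all genes. The matrix gene Fn1 stood at 179031 ± 29054 and 148078 ± 21519 and the intermediate filament gene Vim at 83531 ± 2437 and 79537 ± 12085. Acta2, the smooth muscle actin gene, had the highest log2 fold change, 0.31 ± 0.26, and the epithelial cadherin gene Cdh1, at 24.0 ± 8.57 and 14.9 ± 9.17, the lowest, -0.76 ± 0.46 (limma adjusted p = 0.661 and 0.551).

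**Figure D5:**
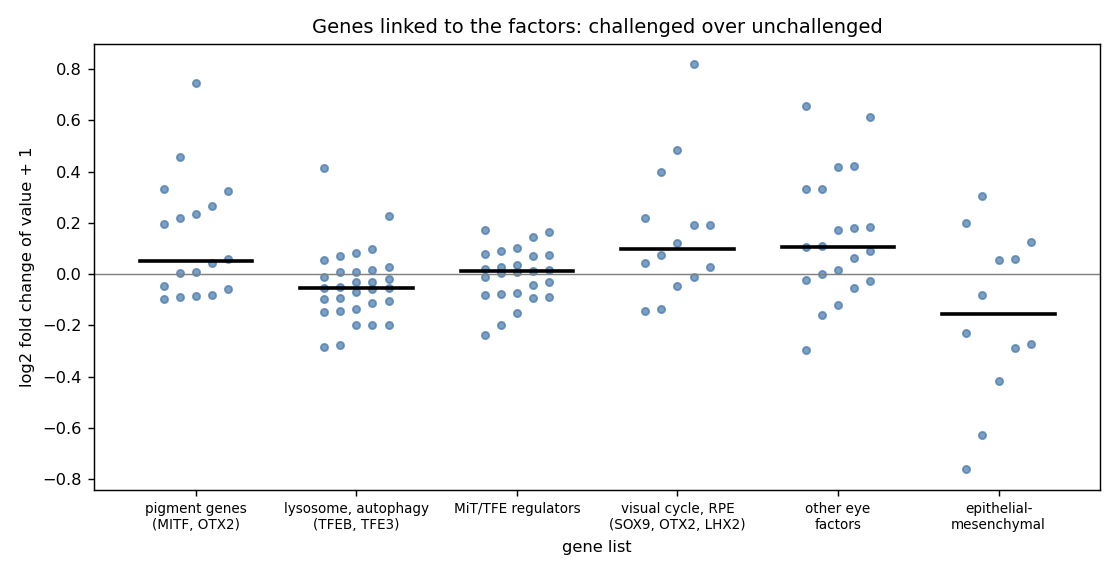
Log2 fold change of value + 1, challenged over unchallenged (y axis), of each measured gene (points) in 6 lists linked to the factors (x axis), with the list median (line). Medians run from -0.16 for the epithelial-mesenchymal list to 0.11 for other eye factors, and the highest points are Lrat at 0.82 and, among pigment genes, Rab38 at 0.75.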

How the data were processed

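Poly(A) RNA was sequenced on a Genome Analyzer IIx, 1 library per biological replicate, per the labels. GSNAP, DESeq2 and mm10 were used by the authors, per the submitters' processing notes. Annotation, counting and strand use were not given in the sources used here. Deposited values are a signal that the authors scaled: read counts divided by a library factor, whole within 0.001 for 100% of values, with at least 87 reads per gene over the 6 libraries. The deposited table also gives, per the file headers, the authors' log2 fold change, a Wald score and p-values.

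All 12556 genes (mean of at least 10, which removed none) were tested on log2(value + 1) by limma 3.58.1 (R 4.3.3) with a mean-variance trend, group as the only term, two-sided, Benjamini-Hochberg adjustment and calls at 0.05. Fold changes understate the change of low genes. The script was tested on simulated data. Members and lists were chosen with earlier results of these data known. Named genes were all members, the list genes called, the most abundant filled to 3, the largest rise and fall of each list and the 2 nearest profiles per member, with Sag and Rpe65; some named by this rule are not reported here. Chosen after values were seen were Ifit3, Hmgcs1, Tbx2, Sox10, Pdgfra, Dcn, Otx2os1, Gm49154 and genes shown for their promoter words. Promoters are RefSeq's and exon lengths GENCODE's. Alternatives were other scalings, filters, pseudocounts, a replicate block, libraries left out and the authors' table.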

Additional observations from a re-analysis of the deposited data

How the results depend on the processing

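Over 15 alternatives and 7 factor genes, 0 of 105 values passed the threshold (lowest adjusted p 0.152, Lhx2 in the authors' deposited table) and 99 kept their direction. Without POS-challenged replicate 1, Otx2 and Sox9 turned (-0.0425 and -0.0240), and without POS-challenged replicate 2, Sox9 turned (-0.0067). With scaling to the RPE marker genes Otx2, Sox9 and Pax6 turned (-0.113, -0.119 and -0.0327). That scaling was chosen after seeing the data and lowered every gene by the same amount (median -0.18). The 3 changes of sign under it follow from that shift alone. Fits that left out 1 library gave log2 fold changes of 0.33 to 0.60 for Mitf, 0.26 to 0.49 for Lhx2, 0.20 to 0.53 for Tfeb, 0.07 to 0.20 for Pax6 and -0.27 to -0.09 for Tfe3, and reached 0.178 for Otx2 and 0.225 for Sox9 without POS-challenged replicate 3. The count of genes past the threshold, 12 in all, was 1 to 120 when 1 library was left out (120 without unchallenged replicate 2), 1 with the replicate block, 0 when unchallenged replicates 1 and 3 were left out together, so that 1 unchallenged library was assumed to vary like the others, 232 with scaling to the RPE marker genes (7 higher and 225 lower, against 8 and 4) and 308 in the authors' deposited table. The cause was not tested. The count of called genes in the 6 lists, 0, became 1 without unchallenged replicate 2 (Twist2) and 1 in the authors' deposited table (Rab38). Same-numbered libraries did not deviate together in every pair (correlations of -0.351, 0.172 and 0.173), so replicate numbers were taken as names only. The family shares kept their direction in every alternative tried. Count models, planned for recovered reads, and a comparison of protein sequences were not run. Mitf and Tfeb rest on 236 to 527 reads per library, and 3 libraries per group also limit what can be detected.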
